A study of Mus musculus with 5 samples.

Results

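The tumour necrosis factor (TNF) superfamily is a family of cell surface and secreted ligands and of the receptors that bind them. Its genes were taken from the deposited expression table by symbol: every Tnfsf and Tnfrsf gene together with Cd27, Cd40, Cd40lg, Cd70, Fas, Fasl, Lta and Ltb, as long as at least 1 library held a value above 0. Among 22815 symbols, 40 fitted the names and 39 were members: 15 ligands, 23 receptors and 1 read-through row that joins Tnfsf12 and Tnfsf13. Cd70, the ligand of Cd27, was listed at 0 in all 5 libraries. A limma model was fitted to the 11117 genes that reached 1 FPKM (fragments scaled to transcript length and to library size) in at least 1 library, and 32 of the 39 members were among them.

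The RNA came from cells washed out of the peritoneal cavity of mice aged 8 weeks and was sequenced by Smart-seq2, a method for small amounts of polyadenylated RNA. The 3 groups were wild-type (WT) C57BL/6 animals that received PBS, a buffered saline (1 library), WT animals that received pristane (2 libraries) and Irf8-deficient animals that received pristane (genotype Irf8KO; 2 libraries). Pristane is a hydrocarbon oil that causes lasting sterile inflammation of the peritoneum. No source used here gives the kind of Irf8 allele, the time after pristane, or whether a library came from 1 animal or from pooled animals. The p-values therefore cover the spread between libraries, which may be technical.

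TNF superfamily ligands are trimers, and each clusters its receptors on the target cell. Receptors with a cytoplasmic death domain can start caspase signalling, receptors without one bind TRAF adaptors and switch on NF-kB, and decoy receptors hold ligand without signalling. In leukocytes the family directs survival of B cells (BAFF and APRIL), costimulation of T cells (4-1BB, OX40, GITR), licensing of dendritic cells and macrophages (CD40), and the inflammatory output of macrophages and neutrophils (TNF). Levels below are FPKM, which are scaled to transcript length and can be compared between genes; changes are differences of group means of log2(FPKM + 1), which understate the change of low genes.

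Irf8 itself stood at 32.4 FPKM with PBS, 63.3 and 48.7 FPKM in WT pristane and 120.5 and 59.4 FPKM in the Irf8KO-labelled libraries, so the labelled genotype was not seen as a loss of Irf8 RNA and every direction below is between labels. The Y-linked Eif2s3y was above 0 in WT pristane replicate 1 and both Irf8KO-labelled libraries. It was listed at 0 in the PBS library and WT pristane replicate 2, where Xist, a female transcript, stood at 43.5 and 8.81 FPKM. Xist was listed at 0 in WT pristane replicate 1 and stood at 0.0148 and 0.0145 FPKM in the Irf8KO-labelled libraries. So the sex of the animals differed within WT pristane and between the PBS library and the Irf8KO-labelled libraries. In Irf8KO pristane against WT PBS sex cannot be told apart from group, and it was unbalanced in the other comparisons. Its part in the members' changes was not tested. Estimated depth was between 2305000 and 5092000 fragments a library, and 1 fragment over 1 kb of transcript equalled 0.196 to 0.434 FPKM. On transcripts of about that length, members under 1 FPKM rested on few fragments. The 7 members not tested were Tnfrsf10b, Tnfrsf17, Tnfrsf22, Tnfsf4, Tnfsf11, Tnfsf15 and Tnfsf18, whose highest values ran from 0.416 to 0.998 FPKM. Defining markers of large peritoneal macrophages (Alox15 at 1046 FPKM) and of B cells (Cd79a at 1028 FPKM) were high in the PBS library, and the 9 neutrophil markers summed to 171 FPKM there against 15561 to 48408 FPKM in the pristane libraries. Large peritoneal macrophage markers (9 of 10 in the table, none at 0) summed to 2017 FPKM with PBS, 119 and 150 FPKM in WT pristane and 1328 and 2094 FPKM in the Irf8KO-labelled libraries. Of these, 8 lay above both WT pristane libraries in both Irf8KO-labelled libraries and 1 below, beside 26.1% and 27.1% of all genes. The 1 below was Timd4, at 26.9 FPKM with PBS, 0.676 and 0.838 FPKM in WT pristane and 0.0957 and 0.552 FPKM in the Irf8KO-labelled libraries. The 7 fibroblast and mesothelium markers were all listed at 0 with PBS and summed to 24.4 to 73.1 FPKM in the pristane libraries. These marker sums differed between the groups compared below, and their part in the members' changes was not tested.

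**Figure D1:**
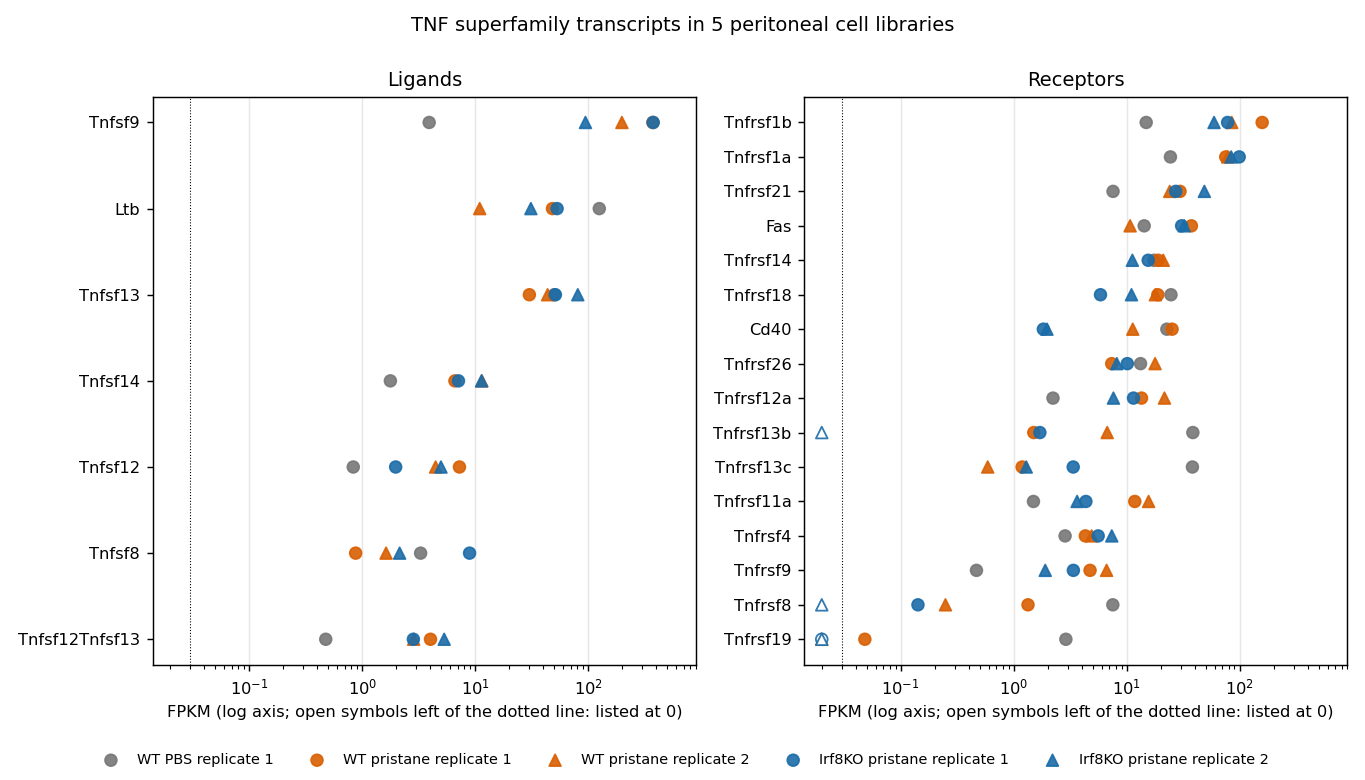
FPKM of the 23 members at 5 FPKM or more in some library or past the threshold in some comparison, on a log axis, one symbol per library (grey, WT PBS; orange, WT pristane; blue, Irf8KO-labelled libraries). Tnfsf9 lies at 3.92 FPKM with PBS and at 94.8 to 377 FPKM in the 4 pristane libraries; Cd40 is at 1.83 and 1.97 FPKM in both Irf8KO-labelled libraries and above 11 FPKM elsewhere.

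WT pristane against WT PBS asked how the oil changed the peritoneal cells of wild-type mice. The ligand Tnfsf9 and the receptors Tnfrsf1a, Tnfrsf1b, Tnfrsf9, Tnfrsf11a and Tnfrsf12a rose, and the receptors Tnfrsf13c and Tnfrsf19 fell. Tnfrsf19 reached 1 FPKM in the PBS library only. In all 8 of the 32 members tested passed the threshold (limma adjusted p under 0.05), 6 higher and 2 lower, beside 10.6% of all genes tested, 5.18% higher and 5.46% lower. At an unadjusted p under 0.05 stood 15 of the 32, beside 33.8% of all genes. Scaling the libraries to equal upper quartiles left 3 higher and 2 lower, beside 439 and 696 of 11146 genes. Tnfrsf1b, Tnfrsf9 and Tnfsf9 were then at limma adjusted p from 0.0503 to 0.0537. The PBS group was a single library whose spread was taken from the pristane pairs. Leaving out any 1 pristane library kept 1 residual degree of freedom, too few for any gene to pass the limma threshold. Such fits cannot decide whether the calls hold.

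Tnfsf9, which encodes the 4-1BB ligand, a costimulator of T cells made by activated antigen-presenting cells, had the largest change of the 32 members tested. It stood at 3.92 FPKM with PBS, 374 and 199 FPKM in WT pristane and 377 and 94.8 FPKM in the Irf8KO-labelled libraries. All 4 pristane libraries were far above PBS, by 95.6-fold and 50.8-fold in WT and by 96.1-fold and 24.2-fold in the Irf8KO-labelled libraries, and the 2 pristane groups overlapped. The log2 change in WT was 5.80 ± 0.96 (SE; limma adjusted p = 0.0444), and it was -0.53 ± 0.78 between the pristane groups (adjusted p = 0.738), with a 95% interval from -2.71 to 1.65. Among the 22815 symbols Tnfsf9 ranked 6657th with PBS and 217th and 372nd in WT pristane. It made up 2.01% of the summed FPKM of the 15 ligands with PBS, 79.1% and 71.6% in WT pristane and 74.9% and 41.3% in the Irf8KO-labelled libraries.

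Its receptor Tnfrsf9 (4-1BB) rose too, from a much lower level. It stood at 0.468 FPKM with PBS, 4.74 and 6.64 FPKM in WT pristane and 3.37 and 1.90 FPKM in the Irf8KO-labelled libraries, so the 3 groups did not overlap. The log2 change in WT was 2.17 ± 0.39 (SE; limma adjusted p = 0.0492). The value with PBS is near that of 1 fragment on 1 kb.

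No other ligand passed the threshold in WT. Ltb, which encodes lymphotoxin beta, a membrane ligand of lymphocytes that organizes lymphoid tissue, stood at 126 FPKM with PBS, 48.4 and 11.0 FPKM in WT pristane and 53.2 and 31.2 FPKM in the Irf8KO-labelled libraries. Every pristane library was below PBS, and the pristane groups overlapped (log2 change -2.38 ± 0.96 SE, adjusted p = 0.178). Tnfsf13 (APRIL), a survival factor of plasma cells made by myeloid cells, varied less than Ltb, at 50.2 FPKM with PBS, 30.2 and 43.8 FPKM in WT pristane and 51.3 and 81.1 FPKM in the Irf8KO-labelled libraries. Tnfsf13b (BAFF), the main survival factor of mature B cells, was low throughout, at 1.71 FPKM with PBS, 0.913 and 0.453 FPKM in WT pristane and 0.517 and 0.186 FPKM in the Irf8KO-labelled libraries.

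Tnfsf14 (LIGHT), a ligand of the lymphotoxin beta receptor and of HVEM, stood at 1.78 FPKM with PBS, 6.62 and 11.5 FPKM in WT pristane and 7.12 and 11.4 FPKM in the Irf8KO-labelled libraries. The pristane groups overlapped and all 4 libraries lay above PBS (log2 change in WT 1.81 ± 0.46 SE, limma adjusted p = 0.0843). Tnfsf12 (TWEAK), which acts on stromal cells and macrophages through Fn14, was at 0.834 FPKM with PBS, 7.27 and 4.47 FPKM in WT pristane and 1.98 and 4.99 FPKM in the Irf8KO-labelled libraries (log2 change in WT 1.87 ± 0.56, adjusted p = 0.107). The read-through row Tnfsf12Tnfsf13 stood at 0.476 FPKM with PBS, 4.03 and 2.86 FPKM in WT pristane and 2.84 and 5.32 FPKM in the Irf8KO-labelled libraries. It shares exons with both genes and the authors' counting may have split their fragments, so the 3 rows are uncertain. Tnfsf8 (CD30 ligand) stood at 3.29 FPKM with PBS, 0.876 and 1.63 FPKM in WT pristane and 8.93 and 2.15 FPKM in the Irf8KO-labelled libraries.

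Both TNF receptors rose after pristane in WT. Tnfrsf1a, the ubiquitous death domain receptor of TNF, stood at 24.4 FPKM with PBS, 75.3 and 78.4 FPKM in WT pristane and 99.1 and 84.1 FPKM in the Irf8KO-labelled libraries. The 4 pristane libraries lay close together and well above PBS (log2 change in WT 1.62 ± 0.20 SE, limma adjusted p = 0.0317). Tnfrsf1b, the TRAF-binding TNF receptor of leukocytes, stood at 14.9 FPKM with PBS, 158 and 85.1 FPKM in WT pristane and 78.3 and 59.4 FPKM in the Irf8KO-labelled libraries (log2 change in WT 2.88 ± 0.45, adjusted p = 0.0415). Tnfrsf1b was below Tnfrsf1a with PBS, at a ratio of 0.610, above it in WT pristane, at 2.10 and 1.09, and below it again in the Irf8KO-labelled libraries, at 0.790 and 0.706. Together these 2 genes held 16.4% of the summed FPKM of the 23 receptors with PBS and 49.2% to 58.0% in the pristane libraries.

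Other receptors with a death domain gave no further calls. Tnfrsf21 (DR6) stood at 7.57 FPKM with PBS, 29.7 and 24.1 FPKM in WT pristane and 27.2 and 48.7 FPKM in the Irf8KO-labelled libraries. All pristane libraries were above PBS (log2 change in WT 1.69 ± 0.42 SE, limma adjusted p = 0.0800). Fas, the receptor that triggers apoptosis when bound by Fas ligand, stood at 14.3 FPKM with PBS, 37.4 and 10.7 FPKM in WT pristane and 30.6 and 32.3 FPKM in the Irf8KO-labelled libraries. The WT pair fell on either side of PBS, so Fas had no single direction in WT (log2 change 0.47 ± 0.76, adjusted p = 0.694). Fasl, made by cytotoxic lymphocytes, ranged from 0.502 to 1.95 FPKM, and Lta, the soluble lymphotoxin, from 0.241 to 1.01 FPKM. Tnfrsf25 (DR3) ranged from 0.163 to 1.22 FPKM.

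Tnfrsf11a and Tnfrsf12a also rose in WT. Tnfrsf11a encodes RANK, the receptor through which RANK ligand drives osteoclast formation and which dendritic cells and macrophages also carry. It stood at 1.50 FPKM with PBS, 11.8 and 15.6 FPKM in WT pristane and 4.35 and 3.64 FPKM in the Irf8KO-labelled libraries, with no overlap between any of the 3 groups (log2 change in WT 2.55 ± 0.29 SE, limma adjusted p = 0.0299). Its ligand Tnfsf11 ranged from 0.205 to 0.811 FPKM, and the soluble decoy of that ligand, Tnfrsf11b (osteoprotegerin), was listed at 0 with PBS and ranged from 0.425 to 2.36 FPKM in the pristane libraries. Tnfrsf12a, the TWEAK receptor Fn14, stood at 2.23 FPKM with PBS, 13.5 and 21.6 FPKM in WT pristane and 11.5 and 7.63 FPKM in the Irf8KO-labelled libraries (log2 change in WT 2.49 ± 0.42, adjusted p = 0.0449).

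The stretches before the start sites of the 5 receptors that rose are shown because these genes rose together in WT pristane. Each has 250 bases, 5′ to 3′ on the gene's strand up to the base before the start, from RefSeq (GRCm38.p6): Tnfrsf1a chr6:125349473-125349722 (+), Tnfrsf1b chr4:145246871-145247120 (-), Tnfrsf9 chr4:150927749-150927998 (+), Tnfrsf11a chr1:105780473-105780722 (+) and Tnfrsf12a chr17:23677450-23677699 (-). Capitals mark matches to the motifs searched.
Tnfrsf1a: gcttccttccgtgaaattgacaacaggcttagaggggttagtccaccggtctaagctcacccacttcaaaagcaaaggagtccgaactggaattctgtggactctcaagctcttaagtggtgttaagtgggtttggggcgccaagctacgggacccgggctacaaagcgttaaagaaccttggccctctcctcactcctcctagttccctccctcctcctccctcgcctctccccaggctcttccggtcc
Tnfrsf1b: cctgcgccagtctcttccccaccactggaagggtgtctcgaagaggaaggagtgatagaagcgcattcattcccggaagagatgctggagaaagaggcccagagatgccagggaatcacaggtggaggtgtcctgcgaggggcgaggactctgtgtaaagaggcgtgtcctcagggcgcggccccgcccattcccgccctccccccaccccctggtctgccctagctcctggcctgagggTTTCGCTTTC
Tnfrsf9: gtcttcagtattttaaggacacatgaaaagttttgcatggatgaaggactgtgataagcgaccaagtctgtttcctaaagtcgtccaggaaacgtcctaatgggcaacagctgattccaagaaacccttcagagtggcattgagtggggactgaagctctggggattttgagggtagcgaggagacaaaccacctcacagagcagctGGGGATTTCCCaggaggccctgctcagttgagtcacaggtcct
Tnfrsf11a: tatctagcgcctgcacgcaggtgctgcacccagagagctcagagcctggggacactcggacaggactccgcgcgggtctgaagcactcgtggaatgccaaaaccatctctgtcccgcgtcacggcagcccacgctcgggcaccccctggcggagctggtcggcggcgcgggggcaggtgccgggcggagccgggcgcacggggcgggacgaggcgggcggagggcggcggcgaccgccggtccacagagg
Tnfrsf12a: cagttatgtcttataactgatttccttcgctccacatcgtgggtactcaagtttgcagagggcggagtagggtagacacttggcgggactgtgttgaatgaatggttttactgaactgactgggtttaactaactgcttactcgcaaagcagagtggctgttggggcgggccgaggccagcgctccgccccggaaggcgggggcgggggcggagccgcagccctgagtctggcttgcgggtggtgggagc

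The search took windows of 300 bases, from 250 before to 50 after the start, on both strands. Of the 39 members 29 had a window. The interferon response core (GAAA, then 2 bases of any kind, then GAAA) was in Tnfrsf1b, Tnfrsf14, Tnfrsf17 and Tnfsf13b, 13.8% of members with a window against 3.99% of 27025 genes. In Tnfrsf1b the match, read as TTTCGCTTTC on the strand shown, ends at the last base before the start. The NF-kB consensus, of 10 letters and given by its name, was in Ltb, Tnfrsf8, Tnfrsf9 and Tnfrsf25, 13.8% of members against 6.55% of genes, and in Tnfrsf9 a pair of overlapping matches made up the capitals. The composite element (GGAA, then 2 bases of any kind, then GAAA), which Irf8 binds together with the myeloid factor PU.1, was in 0 of the 29 and in 3.16% of genes. These are matches of letters in short windows, and nothing in these data measured binding there.

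Of the B cell receptors for BAFF and APRIL, Tnfrsf13c fell in both comparisons with PBS. Tnfrsf13c, the BAFF receptor that mature B cells need to survive, stood at 38.2 FPKM with PBS, 1.19 and 0.589 FPKM in WT pristane and 3.36 and 1.29 FPKM in the Irf8KO-labelled libraries. Every pristane library was far below PBS (log2 change in WT -4.39 ± 0.51 SE, limma adjusted p = 0.0299; -3.63 ± 0.51 and adjusted p = 0.0399 for Irf8KO pristane against PBS). Tnfrsf13b (TACI), which binds BAFF and APRIL, stood at 38.5 FPKM with PBS, 1.51 and 6.73 FPKM in WT pristane and at 1.70 FPKM and 0 in the Irf8KO-labelled libraries (log2 change in WT -3.17 ± 0.97, adjusted p = 0.112). Tnfrsf17 (BCMA), the APRIL receptor of plasma cells, was above 0 in WT pristane replicate 2 only, at 0.650 FPKM.

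B cell markers moved in the same direction as Tnfrsf13c. The 9 of 10 B cell markers found in the table summed to 2444 FPKM with PBS, 38.1 and 9.04 FPKM in WT pristane and 184 and 98.4 FPKM in the Irf8KO-labelled libraries. All 9 were lower past the threshold in WT pristane than with PBS, and Cr2 and Fcer2a were listed at 0 in WT pristane replicate 2. In these bulk samples fewer cells of a type and less RNA per cell cannot be told apart, and the part of B cell number in the fall of Tnfrsf13c was not tested. Set against Cd79b, a subunit of the B cell antigen receptor, Tnfrsf13c stood at 4.94% of its FPKM with PBS, 12.3% and 16.5% in WT pristane and 5.70% and 3.98% in the Irf8KO-labelled libraries. In WT pristane Tnfrsf13c was at 1.19 and 0.589 FPKM, where 1 fragment on 1 kb equals 0.240 and 0.349 FPKM, and Cd79b at 9.63 and 3.58 FPKM. Those ratios are therefore uncertain. Tnfrsf13b stood at 4.98% of Cd79b with PBS, 15.6% and 188% in WT pristane and 2.89% and 0% in the Irf8KO-labelled libraries.

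Tnfrsf8 (CD30), a receptor of activated lymphocytes, stood at 7.54 FPKM with PBS, 1.34 and 0.249 FPKM in WT pristane and at 0.142 FPKM and 0 in the Irf8KO-labelled libraries. It was below PBS in all 4 pristane libraries, with adjusted p = 0.0531 in WT and 0.0429 for Irf8KO pristane against PBS (limma). Tnfrsf19 (TROY), a receptor better known from neural and epithelial tissue, stood at 2.90 FPKM with PBS and at 0.0481 FPKM and 0 in WT pristane, and was listed at 0 in both Irf8KO-labelled libraries. It passed the limma threshold against PBS in WT (adjusted p = 0.0247) and in the Irf8KO-labelled libraries (adjusted p = 0.0274). Tnfrsf19 reached 1 FPKM in the PBS library only, and its SE of 0.15 came from pristane values at or near 0. Both calls therefore rest on that 1 library.

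Tnfrsf18, Tnfrsf14, Tnfrsf4 and the decoy receptors tested did not pass in WT. Tnfrsf18 (GITR), high on regulatory T cells, stood at 24.7 FPKM with PBS, 18.9 and 17.9 FPKM in WT pristane and 5.86 and 11.0 FPKM in the Irf8KO-labelled libraries. Tnfrsf14 (HVEM) varied little, at 17.5 FPKM with PBS, 19.0 and 21.1 FPKM in WT pristane and 15.5 and 11.2 FPKM in the Irf8KO-labelled libraries. Tnfrsf4 (OX40) stood at 2.85 FPKM with PBS, 4.31 and 4.90 FPKM in WT pristane and 5.59 and 7.38 FPKM in the Irf8KO-labelled libraries, and its ligand Tnfsf4 reached at most 0.612 FPKM. Of the receptors listed here as decoys only Tnfrsf26 passed 5 FPKM, and whether it acts as a decoy was not tested. It stood at 13.3 FPKM with PBS, 7.37 and 17.8 FPKM in WT pristane and 10.1 and 8.18 FPKM in the Irf8KO-labelled libraries, on both sides of PBS. Tnfrsf22 and Tnfrsf23, the neighbours and near copies of Tnfrsf26, ranged from 0.262 to 0.998 FPKM and from 0.264 to 3.66 FPKM, and fragments may be shared among the 3.

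**Figure D2:**
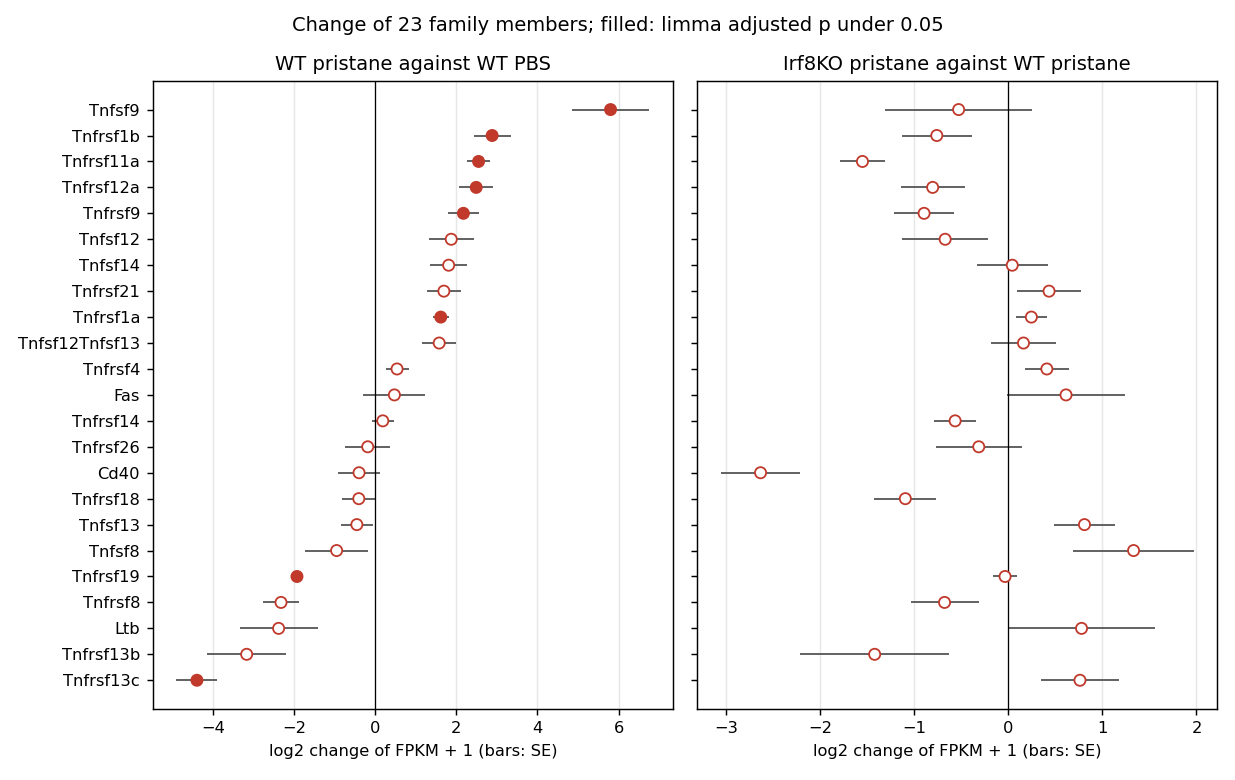
Log2 change of FPKM + 1 with its SE for the 23 members, in WT pristane against WT PBS (left) and in Irf8KO pristane against WT pristane (right); filled points had a limma adjusted p under 0.05. On the left 6 members are filled above 0 and 2 below it. On the right none is filled, and Cd40 is farthest from 0 at -2.63.

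Irf8KO pristane against WT pristane addressed how the response differed in the Irf8KO-labelled libraries. Cd40 and Tnfrsf11a had the largest log2 changes, both with lower values there, but 0 of the 32 members tested passed the limma threshold, beside 0.027% of all genes tested. At an unadjusted p under 0.05 stood 6 members, or 18.8%, beside 20.6% of all genes: Cd40, Tnfrsf11a, Tnfrsf18, Tnfrsf9 and Tnfsf10 with lower values in the Irf8KO-labelled libraries, and Tnfrsf25 with higher ones. Both Irf8KO-labelled libraries lay below both WT pristane libraries for 11 of the 32 members, or 34.4%, and above both for 6, or 18.8%, beside 27.1% and 26.1% of all genes. The share at an unadjusted p under 0.05 was close to that of all genes.

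Cd40, through which T helper cells activate B cells, dendritic cells and macrophages, stood at 22.7 FPKM with PBS, 25.2 and 11.3 FPKM in WT pristane and 1.83 and 1.97 FPKM in the Irf8KO-labelled libraries. The WT libraries with and without pristane overlapped, and both Irf8KO-labelled libraries were far below them. The log2 change between the pristane groups was -2.63 ± 0.42 (SE; limma adjusted p = 0.108), with a 95% interval from -3.81 to -1.45. The adjusted p was 0.0224 when only the 4 pristane libraries were fitted, 0.0371 over genes with a mean of at least 5 FPKM and 0.0472 with a robust prior, and ran from 0.0983 to 0.193 with another pseudocount, scaling, no trend or no filter. Its ligand Cd40lg, made by activated helper T cells, stood at 3.83 FPKM with PBS, 0.681 and 1.69 FPKM in WT pristane and 0.578 and 1.93 FPKM in the Irf8KO-labelled libraries, where the pristane groups overlapped.

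Marker sums of several cell types are given here beside Cd40. The summed B cell markers were higher in both Irf8KO-labelled libraries than in WT pristane, where Cd40 was higher. Dendritic cell markers, 7 of 7 in the table, summed to 24.2 FPKM with PBS, 56.3 and 13.9 FPKM in WT pristane and 4.66 and 7.49 FPKM in the Irf8KO-labelled libraries, with Clec9a and Cd209a listed at 0 in Irf8KO-labelled replicate 1 and Xcr1 in replicate 2. Inflammatory monocyte markers, 8 of 8 in the table and none at 0 in any library, summed to 781 FPKM with PBS, 1084 and 5996 FPKM in WT pristane and 304 and 163 FPKM in the Irf8KO-labelled libraries. Single genes held much of these sums. Plac8 stood at 706 FPKM with PBS and 640 FPKM in WT pristane replicate 1, and Chil3 at 4000 FPKM in replicate 2. Cd209a stood at 20.7 FPKM with PBS and Itgax at 34.6 FPKM in WT pristane replicate 1. By gene, 7 of 8 monocyte and 6 of 7 dendritic cell markers lay below both WT pristane libraries, beside 27.1% of all genes. Chil3 and Zbtb46 overlapped. Both sums were lower in the Irf8KO-labelled libraries, as Cd40 was. T cell and natural killer cell markers, whose sums are given below, were lower there too. Of those tested, 7 of 7 T cell and 6 of 7 natural killer cell markers lay below both WT pristane libraries. The part of any of these cells, or of B cells, in the values of Cd40 was not tested.

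**Figure D3:**
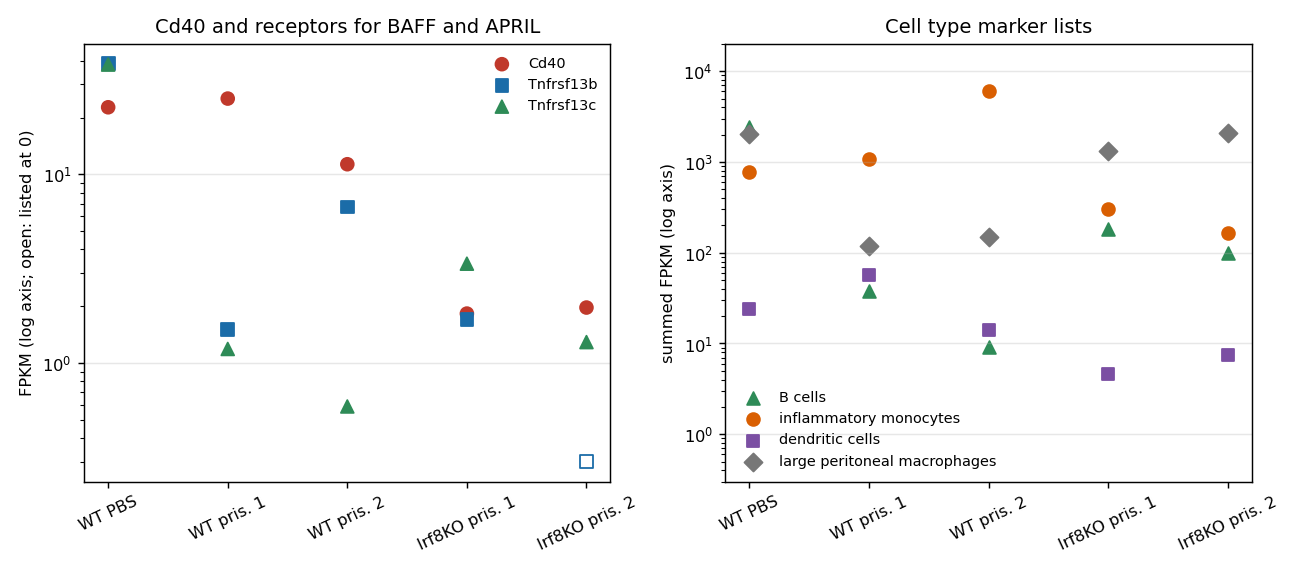
Left, FPKM of Cd40, Tnfrsf13b and Tnfrsf13c in each of the 5 libraries; right, summed FPKM of 4 lists of cell type markers in the same libraries (both log axes). Cd40 stays at 11.3 FPKM or more in the WT libraries and is below 2 FPKM in the Irf8KO-labelled libraries, while the B cell markers go from 2444 FPKM with PBS to 9.04 FPKM in WT pristane replicate 2.

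Tnfrsf11a came next to Cd40 in the size of its log2 change, which was -1.55 ± 0.24 (SE; limma adjusted p = 0.103). The adjusted p was 0.0308 when only the 4 pristane libraries were fitted and 0.0462 over genes with a mean of at least 5 FPKM. It ran from 0.0529 to 0.180 with another pseudocount, scaling, a robust prior, no trend or no filter. In the Irf8KO-labelled libraries Tnfrsf11a lay between PBS and WT pristane. Tnfrsf18 had a log2 change of -1.09 ± 0.33 (adjusted p = 0.197), and Tnfrsf9 one of -0.89 ± 0.32 (adjusted p = 0.239). Tnfrsf1b and Tnfrsf12a, which also lay below both WT pristane libraries, had log2 changes of -0.76 ± 0.37 (adjusted p = 0.341) and -0.80 ± 0.34 (adjusted p = 0.293). T cell markers, 8 of 9 found in the table and none listed at 0, summed to 127 FPKM with PBS, where Tnfrsf9 was lowest. They summed to 113 and 74.0 FPKM in WT pristane and 42.1 and 34.2 FPKM in the Irf8KO-labelled libraries. Foxp3, on the same list and under 1 FPKM throughout, overlapped between the pristane groups. Natural killer cell markers, 8 of 8 in the table, summed to 6.14 FPKM with PBS and to 98.1 and 86.5 FPKM in WT pristane. In the Irf8KO-labelled libraries they summed to 35.3 and 25.4 FPKM. Klra8, on that list, was listed at 0 with PBS and in Irf8KO-labelled replicate 2. The part of T cells or natural killer cells in the values of Tnfrsf18 and Tnfrsf9 was not tested.

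Tnfsf10 encodes TRAIL, a ligand that can induce cell death and is known as an interferon-stimulated gene. It stood at 1.27 FPKM with PBS, 0.854 and 1.47 FPKM in WT pristane and 0.115 and 0.221 FPKM in the Irf8KO-labelled libraries, below the value of 1 fragment on 1 kb in the latter. The log2 change between the pristane groups was -0.88 ± 0.21 (SE; limma adjusted p = 0.156). Its only mouse death receptor, Tnfrsf10b, ranged from 0.179 to 0.685 FPKM. Cd27, a costimulatory receptor of T, B and natural killer cells, stood at 2.83 FPKM with PBS, 4.38 and 2.98 FPKM in WT pristane and 2.84 and 1.34 FPKM in the Irf8KO-labelled libraries.

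By receptor class the changes pointed to different sides. The 4 death domain receptors tested all had positive log2 changes between the pristane groups, with a median of 0.51, while 11 of the 13 TRAF-binding receptors had negative ones, with a median of -0.76. The same counts held under 3 other scalings, but without WT pristane replicate 2 the death domain median was 0.28 and Fas was at -0.24. Over all genes tested 5660 of 11117 were negative and the median was 0.00. Of the TRAF-binding receptors 9 lay below both WT pristane libraries in both Irf8KO-labelled libraries, and Tnfrsf4 and Tnfrsf13c lay above, beside 27.1% and 26.1% of all genes. The negative ones included Tnfrsf19, at -0.03 with pristane values at or near 0. Of the death domain receptors Tnfrsf1a and Tnfrsf25 lay above, and Fas and Tnfrsf21 overlapped. Tnfrsf25 stood at 0.163 and 0.484 FPKM in WT pristane and 0.828 and 1.15 FPKM in the Irf8KO-labelled libraries. The 11 ligands had a median of 0.02. None of these classes held a member past the threshold in that comparison.

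Irf8KO pristane against WT PBS had 4 of 32 members past the limma threshold, 12.5% beside 8.54% of all genes tested, and 18 at an unadjusted p under 0.05 beside 33.7%. Tnfrsf1a was higher (log2 change 1.86 ± 0.20 SE, adjusted p = 0.0321), 1 member beside 3.81% of genes, and Tnfrsf13c, Tnfrsf8 and Tnfrsf19 were lower, 3 members beside 4.72%. Tnfsf9 had a log2 change of 5.27 ± 0.96 there (adjusted p = 0.0545), Tnfrsf1b one of 2.12 ± 0.45 (adjusted p = 0.0673), and Cd40 one of -3.03 ± 0.52 (adjusted p = 0.0503). With a robust prior all 3 passed, in a total of 9 members, 4 higher and 5 lower. Of all 11117 genes 1272 passed with that prior, 656 higher and 616 lower, against 949 without it. This comparison shares the PBS library with the WT one, so the values of both are given side by side and were not set against each other. Its groups also differed in sex, which cannot be told apart here from genotype and pristane.

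Genes of the family that carry other names were read from a list of 7. Tnf, the founding cytokine, stood at 90.2 FPKM with PBS, 737 and 671 FPKM in WT pristane and 286 and 122 FPKM in the Irf8KO-labelled libraries. The groups did not overlap, with adjusted p = 0.0532 for the WT response and 0.158 between the pristane groups (limma). Ltbr, the receptor of lymphotoxin beta and LIGHT, stood at 5.54 FPKM with PBS and rose in WT pristane, with 21.0 and 25.3 FPKM, beside 26.5 and 29.5 FPKM in the Irf8KO-labelled libraries. Its log2 change in WT was 1.88 ± 0.23 (SE; limma adjusted p = 0.0311). Relt, an orphan receptor, ranged from 19.3 to 36.2 FPKM. Tnf and Ltb flank each other in the RefSeq order of protein-coding genes, as do Tnfsf9 and Cd70, yet Cd70 was listed at 0 where Tnfsf9 was at 377 FPKM. Tnfrsf1b and Tnfrsf8, also adjacent, had log2 changes of 2.88 and -2.32 in WT.

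The signalling genes behind the receptors were read from lists of adaptors, NF-kB genes and shedding proteases. Of 28 adaptors and proximal signalling genes tested, 1 rose and 0 fell past the threshold in WT: Tnfaip3 (A20), the ubiquitin-editing brake on TNF receptor signalling, which stood at 43.8 FPKM with PBS and at 215 and 205 FPKM in WT pristane (log2 change 2.23 ± 0.33 SE, limma adjusted p = 0.0378). Of all genes 5.18% rose and 5.46% fell. Rbck1, a subunit of the linear ubiquitin ligase, stayed between 35.2 and 43.3 FPKM in all 5 libraries. The list had a median of 0.16 in WT beside -0.07 for all genes tested. Between the pristane groups 25 of the 28 had negative log2 changes, beside 5660 of 11117 genes in all, with a median of -0.35 (23 of 28 with upper quartile scaling), and 16 lay below both WT pristane libraries in both Irf8KO-labelled libraries, beside 27.1% of all genes. None of them passed the limma threshold (0 of 28), and 6 had an unadjusted p under 0.05, beside 20.6% of all genes. Casp8, the caspase of death receptors, and Tradd, the adaptor of Tnfrsf1a, are given after their values were seen: Casp8 stood at 27.8 and 29.1 FPKM in WT pristane against 12.2 FPKM in both Irf8KO-labelled libraries (adjusted p = 0.0851), and Tradd at 26.1 and 27.6 FPKM against 14.4 and 14.2 FPKM (adjusted p = 0.118).

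Among NF-kB genes 0 of 9 on the canonical side and 0 of 3 on the noncanonical side passed the limma threshold in WT, with 2 and 0 at an unadjusted p under 0.05, beside 10.6% and 33.8% of all genes. Nfkbia, the inhibitor that NF-kB itself induces, stood at 577 FPKM with PBS, 2416 and 1876 FPKM in WT pristane and 2640 and 1775 FPKM in the Irf8KO-labelled libraries (adjusted p = 0.0569 in WT). The pristane groups overlapped. Tnip1, which works with A20 to restrain NF-kB, stood at 10.2 FPKM with PBS, 55.4 and 15.4 FPKM in WT pristane and 37.6 and 26.0 FPKM in the Irf8KO-labelled libraries, again with overlap between the pristane groups. Relb and Nfkb2, which act together in the noncanonical pathway, were each highest in WT pristane replicate 1, at 54.2 and 44.0 FPKM, and close to PBS in replicate 2, at 20.4 and 16.5 FPKM.

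Shedding enzymes release TNF ligands and receptors from the cell surface, and furin-type proteases cut BAFF, APRIL and TWEAK. Of the 4 genes on that list Adam10 and Furin rose in WT, beside 5.18% of all genes. Furin stood at 5.08 FPKM with PBS, 49.0 and 97.2 FPKM in WT pristane and 20.1 and 24.3 FPKM in the Irf8KO-labelled libraries (log2 change in WT 3.53 ± 0.47 SE, limma adjusted p = 0.0343). Adam10 stood at 24.9 FPKM with PBS and from 54.6 to 62.1 FPKM in the 4 pristane libraries (log2 change in WT 1.26 ± 0.19, adjusted p = 0.0396). All 4 genes of the list had positive changes against PBS in WT, with a median of 1.32 beside -0.07 for all genes tested.

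**Figure D4:**
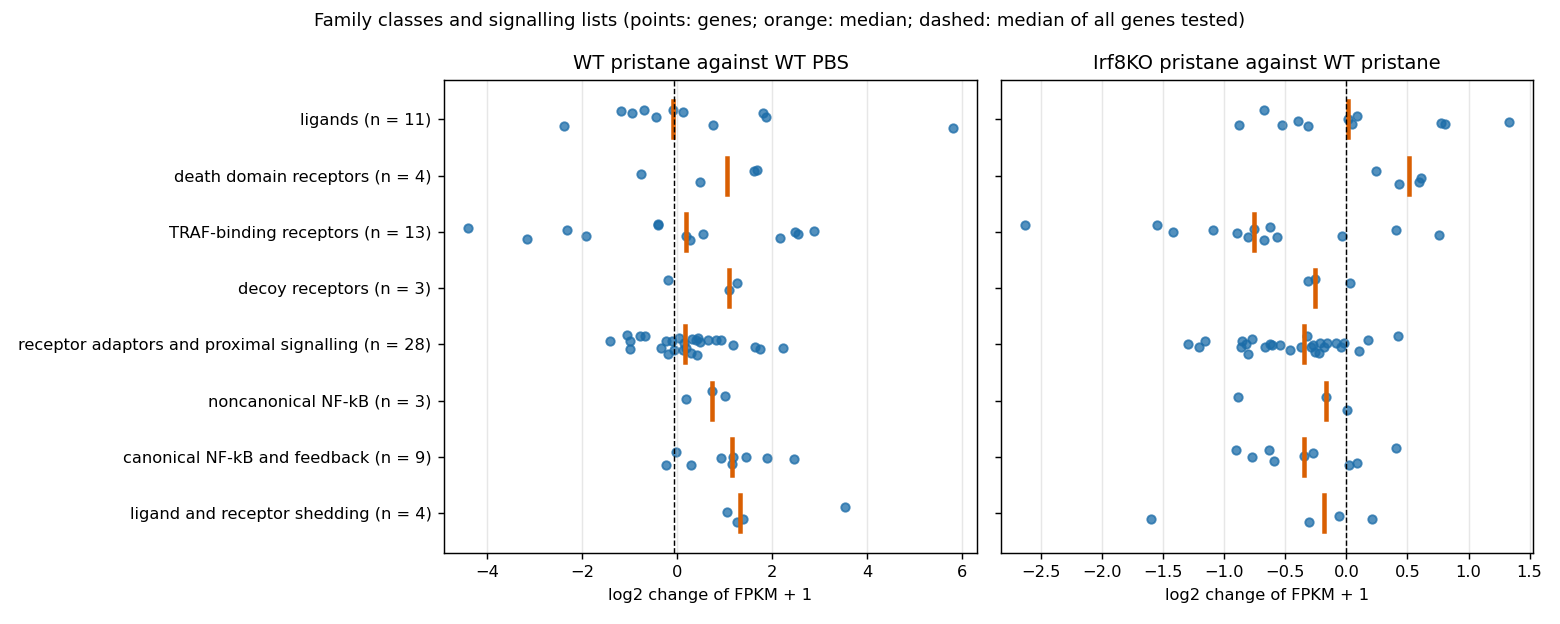
Log2 change of each tested gene by receptor or ligand class and by signalling list, in WT pristane against WT PBS (left) and Irf8KO pristane against WT pristane (right); orange bars are medians and the dashed line is the median of all 11117 genes tested. On the right the TRAF-binding receptors have a median of -0.76, the adaptors one of -0.35 and the death domain receptors one of 0.51.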

How the data were processed

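The deposited table holds 1 column of FPKM per library, computed by the authors; although it is called a count table, its values are not whole numbers. BWA, TopHat2 2.0.10, Cufflinks 2.2.1 and Cuffnorm are named in the submitters' processing notes, without their roles. The sources used here do not give the genome build, the annotation or any scaling between libraries. Libraries were grouped by their titles.

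limma 3.58.1 (R 4.3.3) was fitted, with an intensity trend, to log2(FPKM + 1), with 3 group means, all 5 libraries and a minimum of 1 FPKM in 1 library. Residual degrees of freedom were 2 and prior degrees 1.99. P-values were 2-sided and adjusted by Benjamini-Hochberg over all 11117 genes, and intervals are 95%. The fit was also run on simulated data, with noise drawn from the fit's own spread in all 5 libraries. That run cannot test whether the PBS library varied like the pristane pairs. Depth is approximate: in genes with 1 transcript in GENCODE M21, of 1000 bp or longer, and under 0.3 FPKM, the commonest value times length was taken as 1 fragment. Of the products that rounded to 1 or 2 fragments, 62.6% to 82.1% lay within 0.15 of that whole number. Since a listed 0 may be a failed estimate, no fold change is given against a group at 0.

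Members at 5 FPKM or more in 1 library or past the threshold in any comparison are given in full, the other members by range or values. Signalling genes named are those past the threshold and the 2 with the highest mean per list, with Casp8 and Tradd added after their values were seen. The members, gene lists and tests were chosen with earlier results of these data known. RefSeq coordinates serve only the sequences shown. Other pseudocounts, filters, scalings, priors and library subsets were tried.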

Additional observations from a re-analysis of the deposited data

How the results depend on the processing

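The count of members past the limma threshold depended on the fit. In WT pristane against WT PBS it was 8, beside 1183 of 11117 genes. It was 5 with a pseudocount of 0.1 (846 of 11117 genes), 5 with no filter (1273 of 15245) and 5 with upper quartile scaling (1135 of 11146). That scaling moved the median of all genes from -0.07 to -0.18. Under the other settings with all libraries the count was 8 or 9, beside 1032 to 1561 genes. In Irf8KO pristane against WT pristane the count was 0, beside 3 of 11117 genes. It was 2 with a mean of at least 5 FPKM (242 of 5894 genes) and 2 with the 4 pristane libraries alone (431 of 10431). The replicate block gave 2 (799 of 10431) and a robust prior 1 (264 of 11117). The block rested on replicate numbers that share only a number: over 11117 genes the differences of replicate 1 minus replicate 2 in the 2 pristane groups had r = 0.0448. In Irf8KO pristane against WT PBS the count was 4, beside 949 of 11117 genes. It was 2 with a pseudocount of 0.1 (641 genes) and 2 with a pseudocount of 0.5 (785 genes). A mean of at least 5 FPKM gave 7 (933 of 5894 genes), and a robust prior 9 (1272 of 11117). Leaving out each pristane library in turn kept 1 residual degree of freedom, with a lone library assumed to vary like the other groups. That was too few for any gene to pass, so only directions are read from those fits.

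Among the 23 members given in full, directions reversed in 13 cases, none in a comparison where that member passed the threshold. Reversals of the other members were not counted. Quantile normalization gave a log2 change of -0.064 for Tnfsf13 in Irf8KO pristane against WT PBS. The other 12 came from leaving out 1 library. Over the 4 libraries left out in turn, the log2 change in Irf8KO pristane against WT pristane ran from -0.31 to 0.40 for Tnfsf14, from -0.24 to 1.47 for Fas, from -0.24 to 1.80 for Ltb, from -0.90 to 0.27 for Tnfrsf26, from -0.20 to 0.52 for Tnfsf12Tnfsf13 and from -1.52 to 0.46 for Tnfsf9. In WT pristane against WT PBS it ran from -0.38 to 1.33 for Fas, from -0.77 to 0.40 for Tnfrsf26 and from -0.94 to 0.15 for Cd40. In Irf8KO pristane against WT PBS it ran from -0.45 to 1.21 for Tnfsf8. Apart from the settings with fewer genes or samples, the cause was not tested. Depth limits the members under 1 FPKM.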
